A study of Mus musculus with 10 samples.

Results

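Open chromatin was described at the loci of 5 mouse genes that mark fibroblasts: the collagen genes Col1a1, Col1a2 and Col3a1, the fibronectin gene Fn1 and the surface antigen gene Thy1. The members are all open sites of 4 lists that overlap a fixed mm9 interval around each gene. The intervals are chromosome 11 from 94775000 to 94835000 for Col1a1, chromosome 6 from 4435000 to 4510000 for Col1a2, chromosome 1 from 45350000 to 45425000 for Col3a1, chromosome 1 from 71615000 to 71720000 for Fn1 and chromosome 9 from 43835000 to 43875000 for Thy1. They hold 507 of the 1816946 sites of the series: 163 of embryonic fibroblasts (MEF), 132 of embryonic stem cells (ESC), 124 of neural stem cells (NSC) and 88 of epiblast stem cells (EpiSC). The rule uses positions alone, although the genes were picked with earlier results of these data known.

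Sites were mapped by FAIRE-seq, an assay that fixes cells with formaldehyde, breaks the chromatin, and sequences the nucleosome-poor DNA that a phenol extraction leaves in the water phase. ESC were E14 cells (ES-E14Tg2a) in N2/B27 medium with 1 uM of a MEK inhibitor, 3 uM of a GSK3 inhibitor and LIF, and EpiSC were of the E3 line, expanded in MEF-conditioned medium with 5 ng/ml FGF2 on mitomycin C-treated MEF feeders, then moved off the feeders onto fibronectin-coated plates before crosslinking. NSC were ES-derived neural progenitors in N2B27 with 10 ng/ml each of FGF2 and EGF, and MEF came from E16.5 embryos and grew in DMEM with serum. Each group holds 2 samples and 1 list was analysed per cell type, so no difference between cell types has a replicate check and no test between them is given. The labels of the MEF samples conflict: their source name gives NSC chromatin, and their titles and cell type give fibroblasts, which is followed here. The read depth behind the lists is unknown.

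Type I collagen is a fibre of 2 kinds of chain, encoded by Col1a1 and Col1a2, and type III collagen, encoded by Col3a1, is laid down beside it in soft connective tissue. Fibronectin, the product of Fn1, is a secreted glycoprotein that cells bind through integrins and onto which collagen is assembled. Thy1 encodes CD90, a small glycoprotein held in the outer membrane leaflet by a lipid anchor and used as a surface marker of fibroblasts, neurons and mouse T cells. Fibroblasts are the main makers of interstitial collagen, whereas fibronectin is also made by many epithelial and early embryonic cells.

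On build GRCm38.p6, which differs from that of the lists, the protein-coding genes next to each member are Gm11544 and Sgca for Col1a1, Bet1 and Casd1 for Col1a2, Gulp1 and Col5a2 (another fibrillar collagen gene) for Col3a1, Atic and Mreg for Fn1, and Nectin1 and Usp2 for Thy1. No mm9 annotation was used, so sites are not assigned to promoters, exons or introns, and a site in an interval may belong to a neighbour.

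The table of RefSeq promoters held 2 of the 5 members. Their 250 bases before the annotated start are shown because Col1a2 and Col3a1 are the loci at which MEF had the highest site density, and they differ in composition. Both lie on the plus strand of GRCm38.p6, at chr6:4505368-4505617 for Col1a2 and chr1:45311288-45311537 for Col3a1, and these positions cannot be set beside the mm9 positions of the sites. Capitals mark matches, on either strand, to the CCAAT box, to the GC box with the letters GGGCGG, to the TATA box with the letters TATAAA, or to the AP-1 motif with the letters TGANTCA.
Col1a2: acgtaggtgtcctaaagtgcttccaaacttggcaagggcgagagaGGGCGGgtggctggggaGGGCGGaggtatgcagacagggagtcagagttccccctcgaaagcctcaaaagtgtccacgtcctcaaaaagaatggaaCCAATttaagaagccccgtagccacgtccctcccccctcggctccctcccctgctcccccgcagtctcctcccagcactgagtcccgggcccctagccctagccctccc
Col3a1: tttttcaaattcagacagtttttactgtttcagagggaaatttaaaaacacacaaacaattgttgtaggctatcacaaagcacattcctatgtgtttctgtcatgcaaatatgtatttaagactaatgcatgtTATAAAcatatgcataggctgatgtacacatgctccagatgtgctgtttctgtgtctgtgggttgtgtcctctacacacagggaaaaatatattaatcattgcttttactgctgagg

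The Col1a2 sequence was 62.0% G or C with 11 CpG dinucleotides, and the Col3a1 sequence 35.2% with 0. The median over the 32851 promoters of the table was 52.4% with 6 CpG. Col1a2 held 1 CCAAT, 109 bases before the start, and 2 GGGCGG, and Col3a1 held 1 TATAAA, beginning 117 bases before the start. Of all promoters, 33.8% held CCAAT, 32.7% GGGCGG, 12.4% TATAAA and 6.75% TGANTCA, which neither member had. No 2 of these motifs overlapped in the sequences shown. These are matches of letters, and nothing follows from them about a factor.

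The number of sites was compared first. To make lists of different length comparable, the sites per kb of an interval were divided by the mean over the 19 autosomes of the same list, which gives a relative density of 1 for an average stretch. MEF had the highest relative density at Col1a2 (3.57, 46 sites), Col3a1 (2.87, 37 sites) and Thy1 (2.33, 16 sites). ESC had the highest at Fn1 (3.27, 61 sites) and Col1a1 (2.91, 31 sites). MEF was thus first at 3 of the 5 loci, beside 28.4% of 32953 autosomal windows of 75 kb. At Thy1 its margin over the next list was 1.04 times, and in intervals widened by 10 kb ESC was first there, with MEF at 0.82 times its density.

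MEF sites were dense at all 5 loci when set beside windows of the same length that tile the autosomes. The MEF number lay above 97.7% of such windows at Col1a1, 99.8% at Col1a2, 99.0% at Col3a1, 93.8% at Fn1 and 94.4% at Thy1 (ties split evenly). For ESC the same percentiles ran from 54.3 at Col3a1 to 97.7 at Fn1, for EpiSC from 46.2 at Col3a1 to 97.4 at Col1a1, and for NSC from 46.2 at Fn1 to 88.9 at Col1a2. A locus was said to be denser in MEF where its relative density was at least 2 times that of another list. This held against ESC at 2 of 5 loci, beside 36.5% of these windows. Against EpiSC it held at 1 of 5, beside 24.5% of windows, and against NSC at 1 of 5, beside 17.5%. These shares are near the background, so the counts of loci are no result about the group. Just under the threshold lay Col1a2 and Fn1 against EpiSC, at 1.998 and 1.985 times. The locus called against NSC was Fn1, at 2.53 times.

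**Figure D1:**
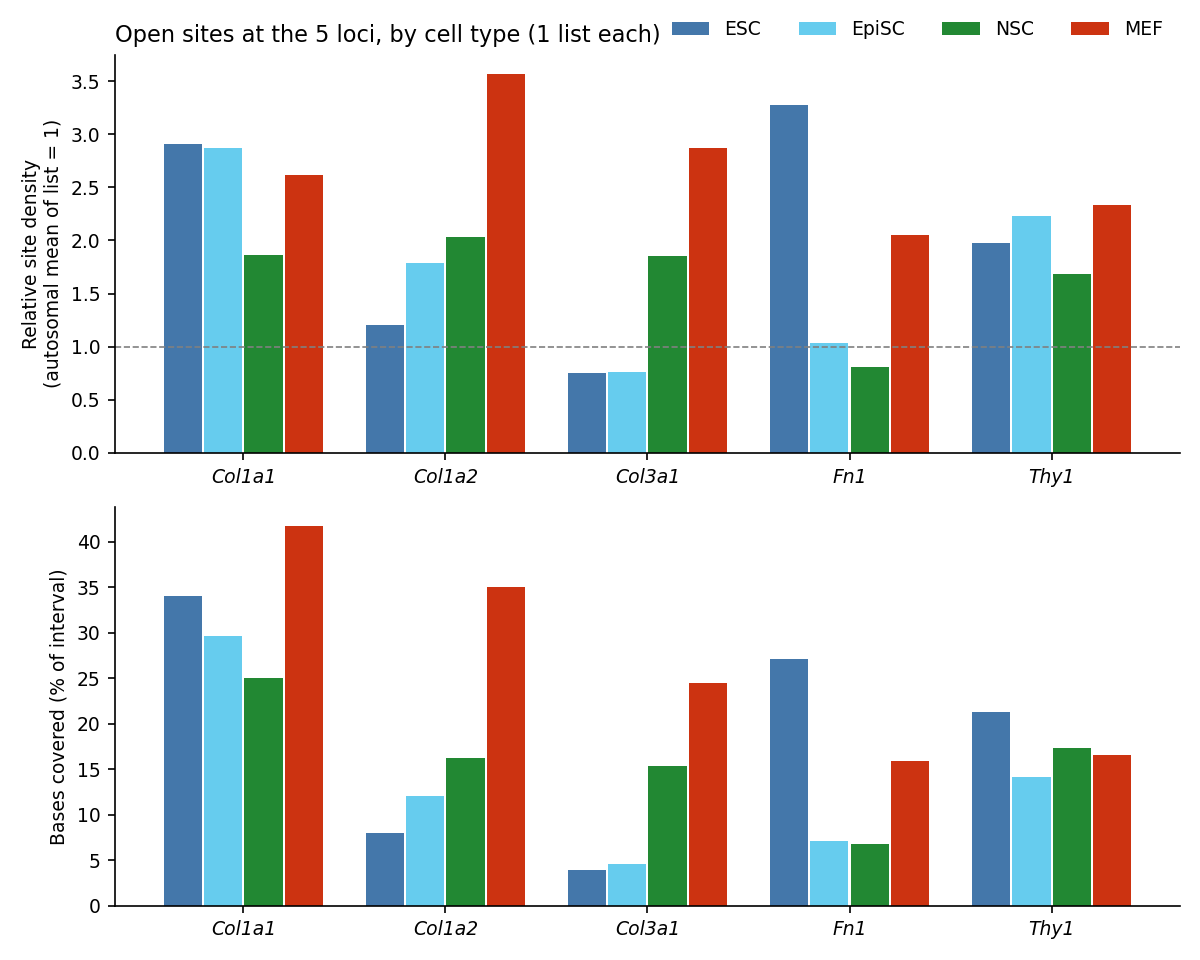
Relative site density (upper panel, sites per kb over the autosomal mean of the same list, dashed line at 1) and share of bases covered by sites (lower panel, percent of the interval) at the 5 loci, 1 bar per list and no error bars because each cell type has 1 list. MEF bars lead at Col1a2 and Col3a1 in both panels, ESC leads at Fn1, and MEF covers the most bases at Col1a1 (41.7%) although ESC has more sites there.

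Col1a2, the gene of the second chain of type I collagen, had the most MEF sites of the 5 loci. There were 46 MEF sites, 34 NSC sites, 21 EpiSC sites and 16 ESC sites in 75 kb. They covered 35.0% of the bases in MEF, 16.2% in NSC, 12.1% in EpiSC and 7.99% in ESC. The relative density in MEF was 2.97 times that in ESC (95% interval 1.65 to 5.62), 1.998 times that in EpiSC (1.17 to 3.52) and 1.76 times that in NSC (1.10 to 2.82). These intervals are exact, given the sum of the 2 numbers of sites, and cover the counting of sites alone, neighbouring sites not being independent. NSC, EpiSC and ESC could not be separated in that order, since the ratio of NSC to EpiSC was 1.14 (0.641 to 2.06) and that of EpiSC to ESC 1.49 (0.739 to 3.05).

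The MEF sites of Col1a2 ran through the middle of the interval, where each other list had fewer sites than MEF. The longest stretch without an ESC site was 23.8 kb, from 4455937 to 4479770 on chromosome 6, and it held 20 MEF sites covering 39.5% of it. EpiSC and NSC had 5 sites each there, covering 8.76% and 5.70%, beside 7.02% and 10.0% of the autosomes. The stretch was picked for its lack of ESC sites. Towards the distal end of the interval the order turned round: the longest stretch without a MEF site was the last 5.34 kb, with 4 ESC and 5 NSC sites and no EpiSC site. It was picked for its lack of MEF sites. In MEF, 20 of the 46 sites (43.5%, 95% interval 28.9 to 58.9) overlapped no other list, beside 43.6% of the whole MEF list. Counted in bases, 60.5% of the MEF-covered sequence was in no other list, beside 51.5% over the autosomes.

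The 2 highest-scoring MEF sites without overlap at Col1a2 also lay in that middle part. The first, at 4458177 to 4458751, had a score of 13.96 and the second, at 4462242 to 4463287, one of 12.0; scores are the authors' own and were ranked only within a list. They stood at the percentiles 99.7 and 99.1 of MEF scores. A total of 8 of the 46 MEF sites reached the 95th percentile, which 5% of the list does by definition. Of the other lists only ESC had sites at that level, 2 of 16, among them the ESC maximum at 4499853 to 4500492 (score 13.1), which was shared with all 3 other lists. The highest NSC score, 11.4 at 4495668 to 4496277, was also at a region open in all 4 lists.

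EpiSC sites at Col1a2 mostly coincided with MEF sites. Of 21 EpiSC sites, 18 (85.7%) overlapped a MEF site, beside 29.1% of the whole EpiSC list, and 8 (38.1%) overlapped ESC, beside 45.0%. A total of 7 of the 63 merged regions of the locus (11.1%) were open in exactly EpiSC and MEF, beside 1.9% of all regions; merged regions join overlapping sites of any list. The highest EpiSC score, 6.96 at 4453135 to 4453641, fell in a site shared with MEF alone. EpiSC had been expanded on MEF feeders, and the part of feeder DNA in this overlap was not tested. MEF sites cover much of this interval, which by itself makes an overlap more frequent.

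At Col3a1, the type III collagen gene, the lists fell into 2 levels. MEF had 37 sites and NSC 31, whereas ESC had 10 and EpiSC 9. Covered bases were 24.5% in MEF, 15.3% in NSC, 4.57% in EpiSC and 3.90% in ESC. The relative density in MEF was 3.82 times that in ESC (1.86 to 8.62) and 3.75 times that in EpiSC (1.78 to 8.83), and its ratio to NSC was 1.55 (0.936 to 2.58). NSC was 2.47 times as dense as ESC (1.18 to 5.64) and 2.42 times as dense as EpiSC (1.12 to 5.78). NSC at least 2 times as dense was found in 31.3% of windows against ESC and in 21.7% against EpiSC. ESC and EpiSC were below their autosomal means, at 0.75 and 0.77.

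Most NSC sites of Col3a1 touched a MEF site, but most MEF-covered bases lay outside NSC sites. Of 31 NSC sites, 22 (71.0%) overlapped a MEF site, beside 30.5% of the whole NSC list. From the MEF side 20 of 37 sites (54.1%) overlapped NSC, beside 40.1%. Regions open in exactly NSC and MEF were 12 of 48 (25.0%), beside 6.36% in all, while 14 were open in MEF alone and 9 in NSC alone. Counted in bases, 30.1% of the MEF-covered sequence was in NSC sites, beside 33.3% over the autosomes, and 65.7% was in no other list, beside 51.5%. From the NSC side 48.3% of the covered bases were in MEF sites, beside 22.3%. MEF sites covered 24.5% of this interval and NSC sites 15.3%, beside 6.69% and 10.0% of the autosomes. This by itself makes an overlap more frequent. The highest score of both lists fell in the same place, 14.04 in MEF at 45368128 to 45368555 and 11.3 in NSC at 45368157 to 45368388 on chromosome 1. ESC also had a site there, EpiSC none.

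Of the few pluripotent sites of Col3a1, 5 of 10 in ESC and 4 of 9 in EpiSC lay in the last 15.2 kb of the 75 kb. The rest lay before that. No EpiSC site lay in the first 20.9 kb of the interval and no ESC site in the first 18.4 kb, where NSC had 12 and MEF 8 sites in the former and 9 and 6 in the latter. These stretches were picked for their lack of EpiSC or ESC sites. The highest ESC score, 13.2, was at 45414560 to 45415364, shared with EpiSC and MEF, and the highest EpiSC score, 10.1, at 45416528 to 45417007, shared with ESC. NSC had no site in the last 15.2 kb, a stretch picked for that lack, which holds both. Just before them lay the widest MEF site of the locus, 2576 bp from 45411539 to 45414114 (score 8.51), which overlapped an ESC site. Of the MEF sites, 14 of 37 (37.8%, interval 22.5 to 55.2) overlapped no other list, beside 43.6% of the whole MEF list. The highest scores among these 14 were 10.7 at 45404078 to 45404614 and 8.25 at 45405010 to 45405236.

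**Figure D2:**
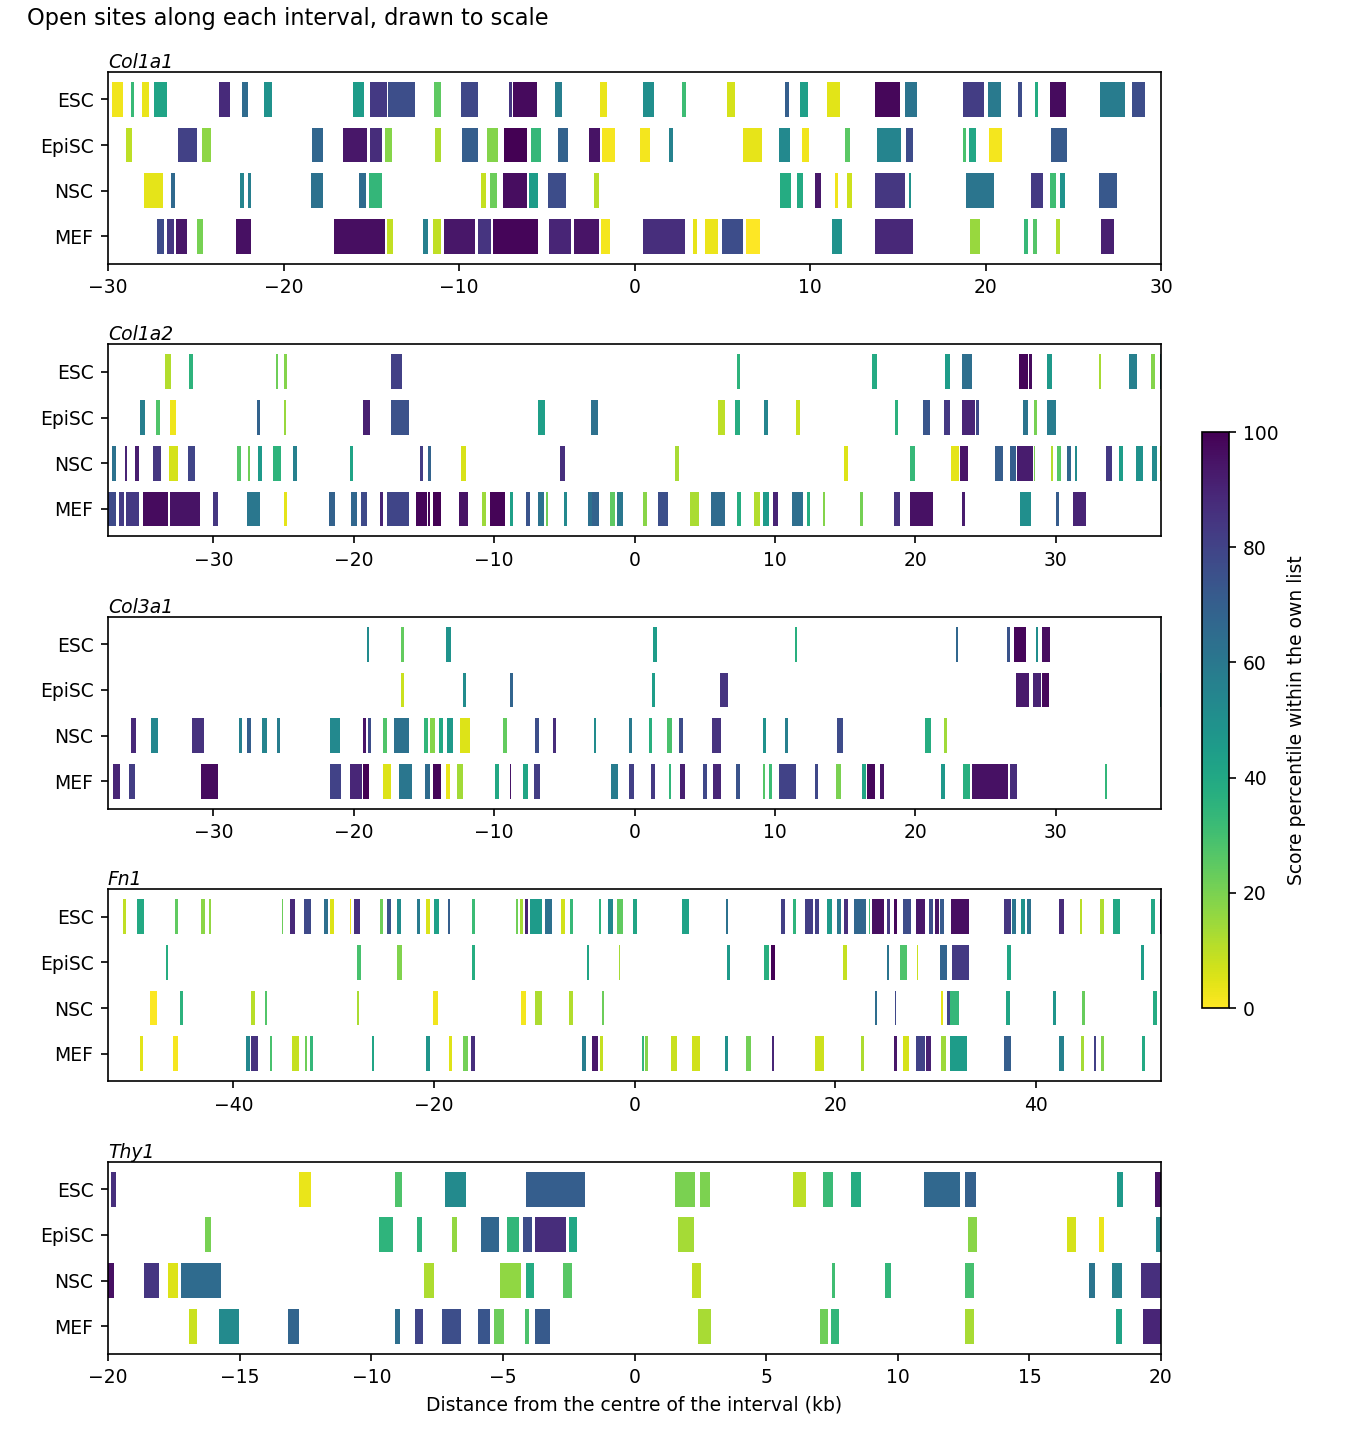
Sites of the 4 lists along each interval, drawn to scale against the distance from the centre of the interval in kb; each block is 1 site and its colour gives the percentile of its score within its own list. At Col1a2 the MEF row holds sites all through the stretch of 23.8 kb without an ESC site, and they cover 39.5% of it. At Col3a1 NSC and MEF have most of the sites, and at Fn1 the ESC row is the densest.

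Fn1 was the locus with the most ESC sites. ESC had 61, MEF 37, NSC 19 and EpiSC 17 in 105 kb, and covered bases were 27.2%, 16.0%, 6.80% and 7.07% in that order. The relative density in ESC was 1.60 times that in MEF (1.04 to 2.47), 3.17 times that in EpiSC (1.83 to 5.78) and 4.04 times that in NSC (2.38 to 7.15). ESC at least 2 times as dense was found in 6.46% of windows against EpiSC and in 20.8% against NSC, and Fn1 was the only locus of the 5 so called in either comparison. MEF in turn was 2.53 times as dense as NSC (1.42 to 4.66) and 1.985 times as dense as EpiSC (1.09 to 3.76). EpiSC and NSC could not be separated, at a ratio of 1.27 (0.622 to 2.59).

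By relative density the ratio of ESC to EpiSC was thus 3.17 at Fn1, whereas at the other loci it lay between 0.67 at Col1a2 and 1.01 at Col1a1. Of the 61 ESC sites, 28 (45.9%, 33.1 to 59.2) overlapped no other list, beside 40.0% of the whole ESC list, and 12 (19.7%) overlapped EpiSC, beside 40.1%. The overlap with MEF was 21 of 61 (34.4%), beside 24.4%. Regions open in exactly ESC and MEF were 11 of 82 (13.4%), beside 1.75% of all regions. Seen from MEF, 22 of 37 sites (59.5%) overlapped ESC, beside 25.0% of the MEF list. ESC sites covered 27.2% of this interval, beside 9.14% of the autosomes, which by itself makes an overlap more frequent. The 3 bins of 5 kb with the most ESC sites, 6 each, lay from 17.5 to 32.5 kb beyond the centre of the interval. The longest stretch without an NSC site, 27.0 kb from 71664468 to 71691503 on chromosome 1, held 15 ESC, 9 MEF and 5 EpiSC sites. It was picked for its lack of NSC sites.

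Scores at Fn1 were modest in MEF. The median MEF score stood at the percentile 33.2 of its list, with 0 of 37 sites at or above the 95th percentile, and in NSC the median stood at 23.3. ESC sites had a median percentile of 53.4, and 3 of 61 reached the 95th. The highest ESC score was 12.4 at 71693389 to 71693701 and the highest MEF score 7.95 at 71693385 to 71693657, in the same place, where NSC was open too. EpiSC had a single high site, with a score of 14.05 at 71681131 to 71681469 (percentile 99.6), shared with MEF alone. The highest-scoring MEF site without overlap was 71663299 to 71663828 (7.86), and the highest of ESC (picked with the values in view) was 71697426 to 71697852 (10.1).

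Col1a1, the gene of the first chain of type I collagen, was dense in sites in all 4 lists. ESC had 31 sites, EpiSC and MEF 27 each and NSC 25 in 60 kb. The ratio of MEF to ESC was 0.90 (0.517 to 1.56), to EpiSC 0.91 (0.515 to 1.62) and to NSC 1.40 (0.784 to 2.52), so the order of the lists by number does not exceed counting error. Relative to chromosome 11 alone, which is richer in sites than the autosomal mean in each list, the densities were 2.04 in MEF, 2.002 in ESC, 1.72 in EpiSC and 1.57 in NSC, which puts MEF first.

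MEF led at Col1a1 in bases covered and in sites of 1 kb or more, but not in number or median width. MEF sites covered 41.7% of the interval, against 34.0% in ESC, 29.7% in EpiSC and 25.1% in NSC. Median widths were 620 bp in MEF, 636 in ESC, 592 in EpiSC and 405 in NSC. Over the whole lists they were 323, 373, 338 and 333 bp. Sites of 1 kb or more numbered 8 of 27 in MEF, beside 3.33% of the whole MEF list, 5 of 31 in ESC (10.2% of its list), 5 of 27 in EpiSC (6.73%) and 4 of 25 in NSC (6.71%). The median MEF score stood at the percentile 76.6 of its list, that of ESC at 58.4, that of NSC at 49.99 and that of EpiSC at 40.5. In the interval narrowed by 5 kb at each end the MEF median fell to 48.98, below that of ESC (61.3) and close to that of NSC (49.4), so the order by score depends on the ends of the interval. The longest stretch without an NSC site, 10.3 kb from 94802963 to 94813288, was 57.1% covered by 6 MEF sites, and 26.9% by 6 EpiSC and 16.9% by 4 ESC sites. It was picked for its lack of NSC sites, and the autosomal cover was 6.69% in MEF, 7.02% in EpiSC and 9.14% in ESC.

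Most regions of Col1a1 were shared. Sites in no other list were 5 of 31 in ESC, 0 of 27 in EpiSC, 1 of 25 in NSC and 4 of 27 in MEF (14.8%, 4.19 to 33.7), beside 40.0%, 30.7%, 47.8% and 43.6% of the lists. For EpiSC the upper limit of that share was 12.8%. Regions open in all 4 lists were 7 of 34 (20.6%), beside 4.05% of all regions. All 4 lists were dense here, which by itself makes an overlap more frequent. In 3 of the 4 lists the highest score lay in the same region, with 15.2 in EpiSC at 94797552 to 94798886, 12.7 in NSC at 94797521 to 94798889 and 11.04 in MEF at 94796964 to 94799516. In ESC the highest, 12.7 at 94818711 to 94820134, was in another region open in all lists. The widest MEF site, 2909 bp from 94787860 to 94790768 (score 9.01), overlapped all other lists. The highest-scoring MEF sites without overlap were low, 3.67 at 94792938 to 94793242 and 2.44 at 94827214 to 94827397.

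At Thy1, the CD90 gene, the 4 lists were alike in number. MEF had 16 sites, NSC 15, and ESC and EpiSC 14 each in 40 kb. The ratio of MEF to EpiSC was 1.04 (0.477 to 2.31), to ESC 1.18 (0.540 to 2.61) and to NSC 1.39 (0.642 to 3.01); intervals this wide leave room for differences in either direction. Covered bases were 21.3% in ESC, 17.4% in NSC, 16.6% in MEF and 14.2% in EpiSC, so that by bases MEF was not first; relative to the autosomal coverage of each list, MEF was 1.07 times ESC, the next list.

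No MEF site at Thy1 was its own. All 16 overlapped at least 1 other list, with an upper limit of 20.6% for the share without overlap, beside 43.6% of the whole MEF list. A total of 11 of the 16 overlapped ESC, 9 NSC and 8 EpiSC, beside 25.0%, 40.1% and 26.6% of the list. The lists were denser here than over the autosomes, which by itself makes an overlap more frequent. Sites in no other list were 5 of 15 in NSC (33.3%) and 3 of 14 in ESC as in EpiSC (21.4% each). The shares of the whole lists were 47.8% in NSC, 40.0% in ESC and 30.7% in EpiSC. The highest MEF score, 6.90 at 43874305 to 43876408, belonged to a site of 2104 bp that crosses the end of the interval and overlaps all other lists, and it was the widest as well. The same region held the highest ESC score, 10.6 at 43874766 to 43876378. The highest EpiSC score, 6.14 at 43851218 to 43852387, lay in another region open in all 4 lists, and the highest NSC score, 12.2 at 43835002 to 43835231, in a site at the start of the interval shared with ESC. No MEF and no EpiSC site of the locus reached the 95th percentile of its list, and 1 ESC and 1 NSC site did.

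**Figure D3:**
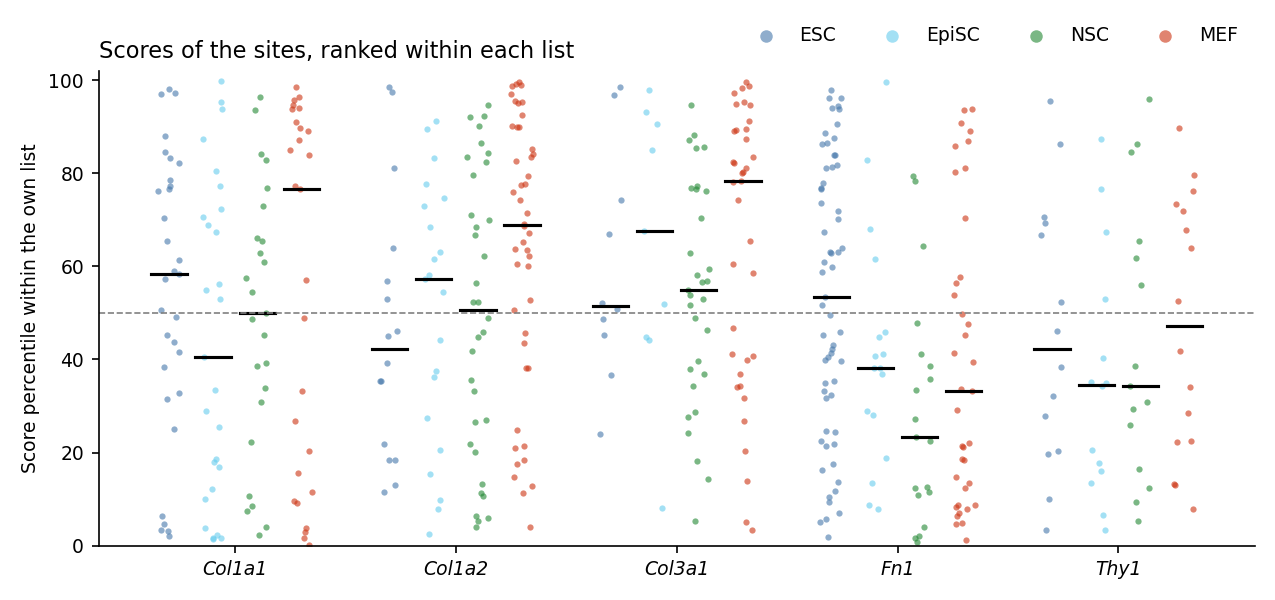
Percentile of each site's score within its own list, by locus and list; each point is 1 site, black bars are medians and the dashed line marks the median of a whole list. MEF medians stand at 76.6, 68.8 and 78.4 at the 3 collagen loci and at 33.2 and 47.3 at Fn1 and Thy1.

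Median scores in MEF, NSC and EpiSC were higher at the collagen genes than at Fn1 and Thy1. At Col1a1 the lead was small in EpiSC (40.5 against 38.1 at Fn1) and depended on the interval ends in MEF. Median percentiles in MEF were 76.6 at Col1a1, 68.8 at Col1a2 and 78.4 at Col3a1, against 33.2 at Fn1 and 47.3 at Thy1. In narrowed intervals the value at Col1a1 (48.98) was level with that at Thy1 (48.99), and Col1a2 and Col3a1 stayed above at 66.2 and 78.3. In NSC the medians were 49.99, 50.6 and 55.004 at Col1a1, Col1a2 and Col3a1, against 23.3 at Fn1 and 34.3 at Thy1. In EpiSC they were 40.5, 57.4 and 67.6, against 38.1 and 34.6. In ESC Fn1 (53.4) lay within the range of the collagen genes, 42.2 to 58.4. All 16 MEF sites at or above the 95th percentile of the list lay at the collagen loci, 8 at Col1a2, 5 at Col3a1 and 3 at Col1a1. They make up 9.82% of the 163 MEF sites, beside 5.0% of the list. In ESC 8.33% of the sites of the 5 loci reached their 95th percentile, in EpiSC 4.55% and in NSC 1.61%.

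Counted by sites, overlap with at least 1 other list was more frequent over the 5 loci together than in the lists as a whole. Of the MEF sites 30.7% overlapped no other list (50 of 163, 95% interval 23.7 to 38.4), beside 43.6%. The values were 29.5% beside 40.0% in ESC, 23.4% beside 47.8% in NSC and 7.95% beside 30.7% in EpiSC. Overlap with all 3 other lists was found for 10.4% of MEF sites, beside 10.1%. It was 14.4% beside 9.78% in ESC, 15.3% beside 7.85% in NSC and 26.1% beside 11.1% in EpiSC. In bases, the MEF-covered sequence in no other list was 60.5% at Col1a2 and 65.7% at Col3a1, beside 51.5% over the autosomes. It was lower at Fn1 (43.0%), Col1a1 (31.3%) and Thy1 (26.8%). Sites of these loci were wider than the list median in MEF (406 against 323 bp), ESC (400.5 against 373 bp) and EpiSC (401.5 against 338 bp), and close to it in NSC (322 against 333 bp). The loci are also dense in sites, and both width and density make an overlap more frequent by themselves; their part was not tested.

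**Figure D4:**
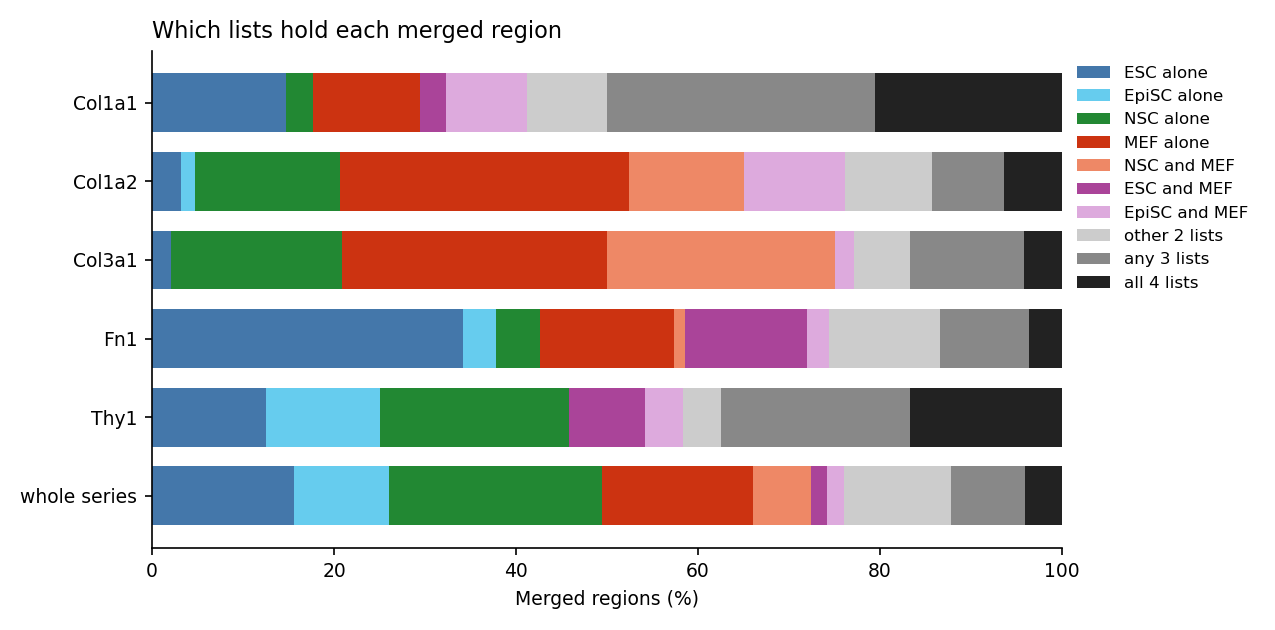
Share of merged regions (percent) by the lists that hold them, for each locus and for the whole series. Regions of MEF alone make up 31.7% at Col1a2 and 29.2% at Col3a1, regions of ESC alone 34.1% at Fn1, and regions open in all 4 lists 20.6% at Col1a1 and 16.7% at Thy1. Counted per MEF site, the share in no other list is 43.5% at Col1a2 and 37.8% at Col3a1, beside 43.6% of the whole MEF list.

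The loci therefore differed in which lists held their 251 merged regions. Regions of MEF alone were 20 of 63 at Col1a2 (31.7%), 14 of 48 at Col3a1 (29.2%), 12 of 82 at Fn1 (14.6%), 4 of 34 at Col1a1 (11.8%) and none of 24 at Thy1, beside 16.6% of all regions. Regions of ESC alone were 28 of 82 at Fn1 (34.1%) and at most 5 at any other locus, beside 15.6%. Such shares depend on how many sites each list has at a locus. Counted per MEF site, the share in no other list was 43.5% at Col1a2 and 37.8% at Col3a1, beside 43.6% of the whole list. For ESC sites at Fn1 it was 45.9%, beside 40.0%. Regions open in all 4 lists were 7 of 34 at Col1a1 and 4 of 24 at Thy1 (16.7%), but 4 of 63 at Col1a2, 2 of 48 at Col3a1 and 3 of 82 at Fn1, beside 4.05%. The 20 regions open in all lists include the highest-scoring site of at least 1 list at each locus but Col3a1. In bins of 5 kb, MEF had sites in 8 of the 15 bins of Col3a1 and 4 of the 15 of Col1a2 that had no ESC site, and in none such at Col1a1, Fn1 or Thy1, where every bin held an ESC site. Over the autosomes 24.4% of such bins held a MEF but no ESC site, which is near the share at Col1a2 and below that at Col3a1.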

How the data were processed

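Each of the 4 cell types has 1 deposited list of open sites with a score for each site, computed by the authors. The lists are labelled qeseq sites, and each is attached to the replicate 2 sample of its cell type. Beyond that name, the sources used here do not describe the caller, aligner, thresholds, scale of the score or use of the genomic DNA control. Whether replicates were pooled is not stated either. The submitters' processing notes name CASAVA 1.8 and build mm9. The other 6 samples were not analysed here. Lists were read as 0-based intervals and are printed 1-based. Overlap means at least 1 bp. Relative densities, shares with exact (Clopper-Pearson) 95% intervals, ratios with exact conditional intervals, and score percentiles within a list were computed. Intervals cover counting error only, and read depth is unknown.

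The background is all autosomal windows of equal length; a window was called with at least 5 sites and 2 times the relative density. Sites named are the highest score per list and locus, the 2 highest MEF scores without overlap and the widest MEF site. Members, lists and tests were chosen with earlier results of these data known; calls between lists other than MEF, bins, the share of windows with MEF first and stretches without sites were chosen after seeing the data. A planned list of other matrix genes was not run, since no mm9 annotation was used. Overlaps were checked against bedtools 2.31.1 and tested on simulated data. Scripts used matplotlib 3.10.9, scipy 1.17.1, pandas 2.3.3, numpy 2.4.6 and Python 3.11.15.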

Additional observations from a re-analysis of the deposited data

How the results depend on the processing

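No paired analysis was possible because there was 1 list per cell type, which also left no replicate to drop. Of the main values under the settings tried, 61 stayed within their interval (within 1.5 times for counts of loci) and 16 moved. No ratio whose interval lay off 1 changed its side of 1. By bases covered in place of sites, the ratio of MEF to the highest other list moved from 1.76 to 3.03 at Col1a2. With the highest-scoring 50% of each list that ratio moved from 0.63 to 0.385 at Fn1, with ESC the highest other list. At Col1a1, where the interval spans 1, it ran from 0.61 with near sites merged to 1.47 by bases covered, and at Thy1 from 0.82 in widened intervals to 1.37 with the highest-scoring sites, so neither locus has an order. The ratio crossed 1 at Col1a1 by bases covered and relative to the same chromosome (1.02, from 0.90), and at Thy1 in widened intervals (from 1.04). The number of loci at which MEF was at least 2 times as dense as ESC was 2 in each alternative but a fold of 3, which gave 1. Against EpiSC the number was 1 and became 3 with the highest-scoring sites, by bases covered, in intervals widened by 10 kb and at a fold of 1.5, and 2 with lists of equal length and in intervals narrowed by 5 kb. Against NSC it was 1 and became 4 by bases covered and 3 at a fold of 1.5. It was 2 with the highest-scoring sites and in narrowed intervals, and 0 at a fold of 3. The share of windows was not computed under any of these alternatives, so their counts have no background to be set beside. The share of MEF sites in no other list moved from 30.7% to 43.5% with the highest-scoring sites and to 38.9% with lists of equal length, beside 56.0% and 49.2% of the whole list under the same settings; shorter lists overlap less by construction, and for the rest the cause was not tested. The share of windows called ran from 16.1% to 38.2% with windows of 50 or 100 kb. Shares and score percentiles per locus under other interval ends were added after the data were seen. The shares stayed within the intervals of their main values, and the median percentiles moved by less than the spread of single sites. That spread is wide: in narrowed intervals the MEF median at Col1a1 went from the percentile 76.6 to 48.98, level with Thy1. Numbers of sites depend on read depth, which is unknown.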
